A study of Mus musculus with 7 samples.

Results

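The peaks described here are the listed ATAC-seq peaks that the list places in a coding exon, at a transcript end or in an exon of a 3′ untranslated region. They were chosen by the gene section that the deposited peak list gives each peak: a coding exon (224 peaks), a transcript end (127 peaks) or a 3′ UTR exon (30 peaks). The coding exon label follows the list and includes 15 peaks in genes that it does not class as protein-coding. Together the 3 classes made up 381 of 6395 listed peaks, or 5.96% (Wilson 95% interval 5.40 to 6.56%). ATAC-seq inserts sequencing adapters into DNA that nucleosomes leave accessible, so a peak marks a stretch of open chromatin. The study sorted follicular helper T (Tfh) cells, the CD4+ T cells that help germinal centre B cells, from the spleens of uninfected lupus-prone B6.Sle1.Yaa mice aged 5 months, by the gate CD4+CD44+GITR-PSGL-1loCXCR5hiPD-1hi. The mice had received an injected antibody 2 times a week for 4 weeks, either anti-IFNAR1 (4 samples) or anti-rat IgG as the control (3 samples). The sample labels spell the first antibody anti-IFNA1, whereas the title names IFNAR1, the receptor subunit for type I interferons. Both groups carry the Sle1 susceptibility interval and the Yaa Y chromosome, so neither is a healthy control. The labels do not say whether a sample is 1 mouse or a pool.

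The deposited list is 1 comparison with no column for any sample. It holds only peaks called higher on the anti-IFNAR1 side than on the IgG side, a direction read from the comparison name the list gives. No spread between mice can be computed. Every p-value given here covers counting error only. Each Wilson interval treats listed peaks as independent draws, and measures neither fragment counting error nor spread between mice. Sequencing depth was uneven, with 3.54 anti-IFNAR1 fragments for each IgG fragment. The sorted cell type could be checked only by which genes had a listed peak. Of 35 genes fixed for Tfh cells, 26 had one, against 0 of 14 B cell markers, 0 of 10 CD8 T and NK cell markers, 0 of 9 erythroid markers and 3 of 18 myeloid markers. The count was similar for lists not particular to Tfh cells, with 19 of 26 T cell receptor signalling genes and 15 of 20 naive and memory T cell genes. It was lower for Th1 and cytotoxic (6 of 21), Th2 and Th17 (4 of 15) and regulatory T cell genes (3 of 12). These counts therefore do not set Tfh cells apart from T cells in general. A peak list of increases cannot show the level of any marker in either group.

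Open chromatin is found mostly at gene starts and enhancers. Coding exons and transcript ends are usually less accessible. A peak there may still lie beside a start, because a first coding exon can sit just after the start, because genes carry several transcripts with different starts and ends, and because a neighbouring gene or an antisense RNA can begin inside the body of another gene. Nonsense-mediated decay transcripts, which hold a premature stop codon, are annotated with long stretches of exon after that stop, so an exon in the middle of a gene can be listed as 3′ UTR.

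Sequence is shown first for places where such a peak covered the start of an annotated gene, since these are the sites where the exon or gene end label and the start of another transcript meet. The letters come from RefSeq promoter windows of the build of the files (mm10, GRCm38.p6), 30 bases each, written 5′ to 3′ along the plus strand or the minus strand as given. Capitals mark the first 15 bases of the transcript in the start pieces and the first match of the motif in the window in the other pieces. Further matches are not marked, and the Csrnp1 start piece holds another AP-1 match before its capitals.
Csrnp1 start, chr9:119983009-119983038, minus strand, under a Cx3cr1 3′ UTR exon peak: gtgagtcaccggggcGCAGCTACACCGACC
Csrnp1 AP-1 motif, chr9:119983107-119983136, minus strand, under the same peak: gcgaggcttggTGAGTCAcggaccccggga
Gm40755 start, chr10:108332989-108333018, minus strand, under a Pawr coding exon peak: cggggccgtggttgaGCTCCGAGGTTCCCG
Stk35os1 start, chr2:129801445-129801474, minus strand, under a Stk35 coding exon peak: gcccgggccccccttGCCTCATCCCTCCGT
6330415G19Rik start, chr17:23550784-23550813, plus strand, under a Casp16-ps gene end peak: gcctctcccagcataTCCAGGTCAGCCTTG
Gm30368 start, chr15:78927957-78927986, minus strand, under an Lgals1 coding exon peak: ttgctggcgaccagaCCCTGTGTAGACAAG
Gm38786 start, chr6:34029710-34029739, minus strand, under an Lrguk coding exon peak: tttcggactcctctgACTCTTCAGATTCTC
Clk3 ETS motif, chr9:57765120-57765149, minus strand, under the Clk3 first coding exon peak: ggaggccagagCCGGAAGcggaagaggcgc

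Of the RefSeq promoter windows, which run from 250 bases before a start to 50 after it, 16 had at least 150 bases under a coding exon, gene end or 3′ UTR exon peak. These 16 windows held a median of 27 CG dinucleotides, against 25 in the 2497 windows under other listed peaks and 7 in all 32851 windows. A GC box (GGGCGG, either strand) stood in 62.5% of the 16 windows, in 72.45% of those under other listed peaks and in 35.66% of all. The AP-1 motif TGANTCA was in 3 of the 16 windows (18.75%), against 3.68% and 7.81%. Of those 3 windows, 1 is the Csrnp1 window printed above, and the others are overlapping windows of a pair of Gm30368 starts that share the same match, which lay outside the peak. A match describes the letters in a window and shows no binding.

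How near such a peak lay to the start of its own gene depended on its class. By the distance the list gives, from the nearest edge of the peak to the start of the assigned transcript, coding exon peaks lay a median of 393.5 bp away (quartiles 169 and 3252 bp). Gene end peaks lay a median of 5549 bp away (974 and 19434 bp), and 3′ UTR exon peaks 39458.5 bp away (23931 and 75869 bp). Within 1 kb of the assigned start lay 186 of the 381 peaks (48.8%, Wilson 95% interval 43.8 to 53.8%). By class these were 151 of 224 coding exon peaks (67.4%), 34 of 127 gene end peaks (26.8%) and 1 of 30 3′ UTR exon peaks (3.33%). Position follows in part from the class itself, because the list gives the start section to peaks at -997 to 99 bp from a start, so these shares are descriptions and carry no test.

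**Figure D1:**
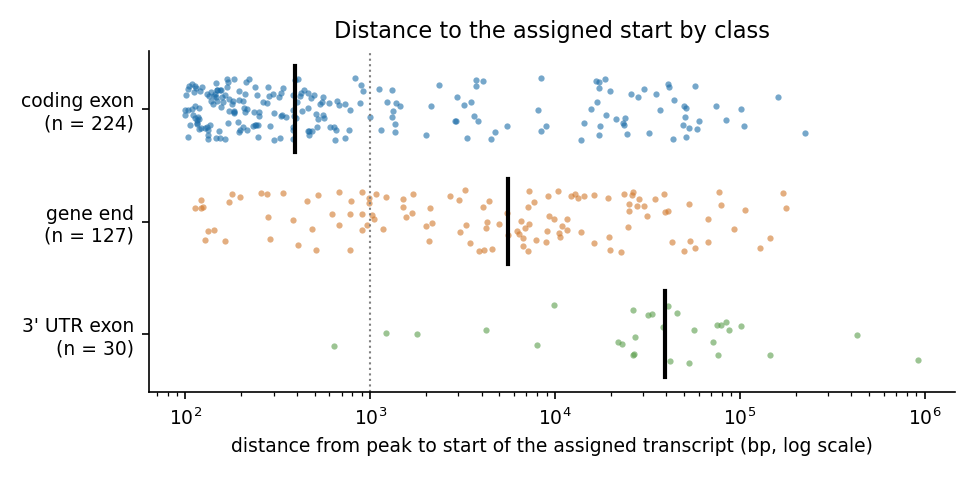
Distance from each peak to the start of its assigned transcript (bp, log axis) for coding exon, gene end and 3′ UTR exon peaks; each point is 1 peak, the black bar is the class median and the dotted line is at 1000 bp. Coding exon peaks crowd below 1000 bp, with a median of 393.5 bp, whereas 29 of the 30 3′ UTR exon peaks lie above the line.

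The size of the gain was close to that of the list as a whole. The fold is the authors' value for each peak, the scaled anti-IFNAR1 pileup plus 1 over the background plus 1. Because every scaled pileup is a whole multiple of 1 value, the number of anti-IFNAR1 fragments under each summit could be read back. The median fold was 4.57 (range 2.48 to 11.9) over the 381 peaks, 4.74 over all listed peaks and 4.76 over the gene start peaks. Within the classes the median was 4.60 for coding exons, 4.52 for gene ends and 4.41 for 3′ UTR exons. Every listed peak was chosen on this same pileup and background. Close medians therefore follow in part from that choice, and no test was run on them. The peaks had fewer fragments than gene start peaks, with a median of 32 (range 11 to 124) against 46, and a lower control background, 1.00 against 2.00 fragments. At 164 or more of the 381 sites the control side had 0 fragments under the summit. At some others the background came from a wider window, so the control count under the summit is known only as a maximum.

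All 381 peaks passed the list's q threshold of 0.05, as did 100% of the list, since that threshold made it. At q of 0.01, 289 of the 381 remained (75.9%), against 82.4% of the list. The caller takes its background as known exactly. A one-sided exact conditional binomial test at the site instead treated the control count as a count with its own noise. Where that count is known only as a maximum, the maximum was used, which gives the largest p possible there. The numbers passing this test, here and over the list, are therefore minimums. Called at the list's largest p (6.90e-05), 36 of the 381 peaks passed (9.45%, Wilson 95% interval 6.90 to 12.8%), against 20.9% of all listed peaks. These were 21 coding exon, 13 gene end and 2 3′ UTR exon peaks. A site with 0 control fragments needs 39 anti-IFNAR1 fragments to pass, and 138 of the 381 had that many. Of those 138, 26.1% passed, against 37.7% of all listed peaks with as many. When the control was taken over the window the caller used, 278 of the 381 passed (73.0%), against 68.7% of the list. That setting counted the control over a wider window at 220 of the 381 peaks and left the site test unchanged at 110. At the other 51 the caller had used its genome-wide rate, which was taken as fixed, so no control noise was added there.

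**Figure D2:**
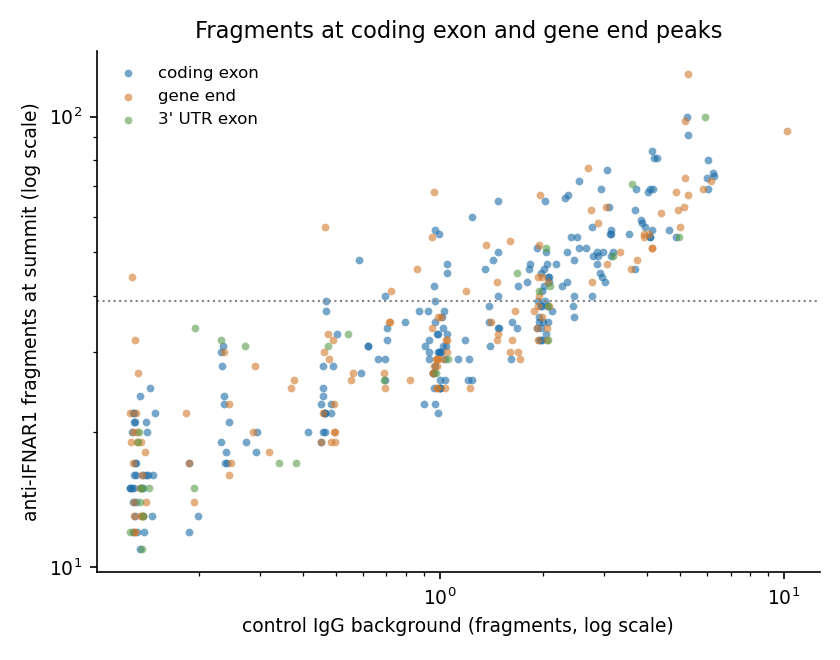
Anti-IFNAR1 fragments under the summit against control background fragments for each coding exon, gene end and 3′ UTR exon peak, with points shifted slightly sideways so that ties can be seen; the dotted line marks the 39 fragments needed at a site with no control fragment. Of the 381 peaks, 138 reach that line.

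**Figure D3:**
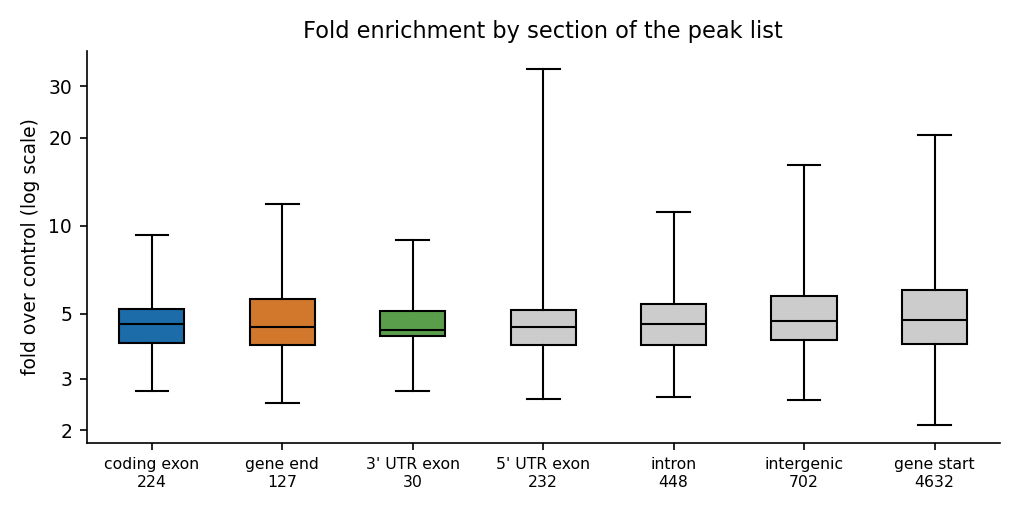
Fold of the anti-IFNAR1 side over background for listed peaks of each gene section; boxes span the quartiles with the median inside, and whiskers run from the lowest to the highest peak. Medians run from 4.41 in 3′ UTR exons to 4.76 at gene starts.

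Among coding exon peaks, the first exon held most of the count. Exon 1 held 137 of 224 peaks (61.2%) at a median of 197 bp from the assigned start, with a median of 38 fragments over a background of 1.65. Exon 2 held 38 peaks (17.0%) at 1306.5 bp. Exons from the third on held 49 peaks (21.9%) at 18568 bp, with a median of 25 fragments over 0.850, and 1 of the 49 lay within 1 kb of the assigned start. The median fold was 4.52, 4.88 and 4.63 in these groups. Peaks in later exons had fewer fragments and a similar fold, but every peak was listed on these same values.

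The coding exon peaks with the smallest q lay mainly in first exons. Anp32b, which encodes an acidic nuclear phosphoprotein that binds histones, had 65 anti-IFNAR1 fragments over a background of 1.42 at chromosome 4, 46451005 to 46451669 (fold 8.02, q = 4.60e-11), 103 bp from its start. Stk24, a Ste20-like kinase, had 60 fragments over 1.18 (fold 8.24) at 279 bp. Lrch1, a leucine-rich repeat protein, had 56 over 1.00 (fold 8.42) at 103 bp. Each of these is a first-exon peak whose near edge lies beyond the 99 bp that the list still calls a gene start. Hif1a, the hypoxia-responsive transcription factor, had 65 fragments over 2.00 at 133 bp (fold 6.46). It passed the exact test at the site at p = 1.12e-05, and the Anp32b, Stk24, Lrch1 and Bard1 peaks passed it too. Bard1, the partner of the DNA repair ligase Brca1, had 100 fragments over 5.43 at 182 bp (fold 4.55), the deepest of the coding exon peaks. Among coding exon peaks the nearest to a start were those of Tbc1d15 and Lrguk at 100 bp and Nfx1 at 101 bp.

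Of the 49 peaks in later exons, 28 had no counted start within 10 kb and 21 had one. Counted were RefSeq starts of genes with a known strand, the assigned transcript start and transcript starts that the list names for other peaks. Galnt9, an enzyme that starts mucin-type O-glycosylation, had 48 fragments over 0.566 in exon 5 at chromosome 5, 110595196 to 110596519, 50841 bp from the start of the assigned transcript (fold 9.30, q = 6.31e-11), although a RefSeq start of the same gene lay at -7544 bp, so that the summit is upstream of it. Ptprs, a receptor tyrosine phosphatase, had 69 over 3.00 in exon 14 (fold 5.13). These were the 2 of 49 later-exon peaks that passed the exact test at the site (4.08%, against 20.9% of the list). Irf2, a transcription factor that binds interferon-response elements, had 42 over 1.00 in exon 8, 105116 bp from the start (fold 6.44). Flt1, a receptor for vascular endothelial growth factor, had 25 over 1.00 in exon 30 (fold 4.03). Of the 49 peaks, 27 had a background below 1 fragment. At 11 of the 49 the background was the genome-wide rate of 0.132, the lowest value the caller can use, so those folds rest on the anti-IFNAR1 fragments alone.

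Gene end peaks were a mixture of ends of long genes and ends of short transcripts. The section reached from 979 bp before the transcript end to 96 bp after it. Of 127 peaks, 44 lay over the end itself, 71 inside the transcript and 12 past it. The assigned transcript was a protein-coding one for 60 (47.2%), a retained intron for 18 and a processed transcript for 17. The 34 peaks within 1 kb of the assigned start belonged to transcripts with a median length of 1335 bp, and 20 of those transcripts were not labelled protein-coding. The 93 others belonged to transcripts of 10882 bp, of which 47 were not labelled protein-coding; both counts include nonsense-mediated decay transcripts. The median fold was 4.37 near the start and 4.62 away from it.

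The largest folds of all 381 peaks were at gene ends. Gm12796, a long intergenic noncoding RNA, had 44 fragments over the genome rate of 0.132 at chromosome 4, 101292113 to 101293123 (fold 11.9, q = 9.47e-17), and the nearest other listed peak, at Jak1, lay 27497 bp away. Ctdsp1, a phosphatase of the RNA polymerase II tail, had 57 over 0.472 at chromosome 1, 74397344 to 74398422 (fold 11.6). Mospd3 had 68 over 1.00 at chromosome 5, 137596752 to 137596990, a peak of 238 bp (fold 10.1), and its own gene start peak, 3943 bp away, was listed too. The first rests on the lowest background the caller can use. The peaks at Gm12796, Ctdsp1 and Mospd3 passed the exact test at the site, at p = 1.75e-05, 6.87e-07 and 7.10e-07. Cd3d, a subunit of the T cell receptor complex, had 98 fragments over 4.96 at its end, 4147 bp from its start (fold 4.82, exact p at the site 2.95e-07). Setd1b, a histone H3 lysine 4 methyltransferase, had 77 over 2.60 at the end of a retained-intron transcript (fold 6.33), with its gene start peak also listed. Gja5, a gap junction connexin, had 32 over 0.132 at a site 171517 bp from its start (fold 8.88). The farthest gene end from its start was that of Nrg2, at 178280 bp.

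Some gene end peaks lay close to the start of the same gene. At Pfn1, which encodes the actin-binding protein profilin, the end of a retained-intron transcript lay under a peak 121 bp from the start, with 62 fragments over 4.72 (fold 3.24). At Tmsb4x, which encodes the actin-sequestering thymosin beta 4, the distance was also 121 bp, with 29 over 1.00 (fold 4.60). Both genes also had a listed start peak, 964 bp and 1125 bp from these summits. The histone genes Hist1h1b and Hist1h4n are so short that start and end fall close together. Their gene end peaks, at 453 and 256 bp from the start, had 32 over 1.42 (fold 4.16) and 20 over 0.472 (fold 4.52). Whether reads were shared between near-identical histone copies was not tested.

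Most of the 30 peaks in 3′ UTR exons lay deep inside the assigned transcript. Of the 30, 20 were assigned to nonsense-mediated decay transcripts (66.7%, Wilson 95% interval 48.8 to 80.8%), against 4.91% of all listed peaks, and 10 to protein-coding transcripts. The median distance to the end of the assigned transcript was 14931.5 bp (range 1039 to 109702 bp), and 19 of the 30 were over 10 kb from that end. None of the counted starts lay within 10 kb of 23 of the 30 (76.7%). Genes without a known strand were not counted, and an edge of such a gene lay within 10 kb at some of the 23, such as Nfatc1 (5970 bp). Camta1, a calmodulin-binding transcription activator, held the peak farthest from its start of all 381, at 921208 bp (chromosome 4, 150939903 to 150940462), with 34 fragments over 0.189 (fold 8.93, q = 3.05e-10). Samd12 had 32 over 0.236 at 427586 bp (fold 8.13). Ezh2, the methyltransferase of histone H3 lysine 27, had 31 over 0.283 at 33569 bp (fold 7.61). Smc4, a condensin subunit, had 33 over 0.543 at 1220 bp (fold 6.69), among the few close to a start. None of these 4 peaks passed the exact test at the site, where 39 fragments is the least that can.

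The deepest 3′ UTR exon peak carried the name of the chemokine receptor Cx3cr1, yet lay over the start of another gene. It had 100 fragments over 6 at chromosome 9, 119981680 to 119983773, 84511 bp from the assigned Cx3cr1 start (fold 4.18, q = 1.02e-07, exact p at the site 3.77e-06). The summit was 593 bp into Csrnp1, a nuclear protein gene on the same strand, whose first bases and first AP-1 match are printed above. A second peak assigned to Cx3cr1, at 56569 bp from its start, had 42 over 2.00 (fold 4.29). Nfatc1, the calcium-responsive transcription factor, had 71 over 3.78 at 101113 bp from its start (fold 4.41), and was the next deepest of the class.

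Another gene's RefSeq start lay within 1 kb of the summit at 31 of the 381 peaks (8.14%, Wilson 95% interval 5.79 to 11.3%). The share was 8.93% for coding exons (20 peaks), 7.87% for gene ends (10 peaks) and 3.33% for 3′ UTR exons (1 peak). Measured in the same way it was 4.02% for intron peaks, 4.31% for 5′ UTR exon peaks, 12.0% for intergenic peaks and 24.1% for gene start peaks. The neighbour lay on the opposite strand at 29 of the 31 and was a long noncoding RNA at 19. At 12 the start was within 250 bp of the summit, at 9 it lay inside the peak, and at 18 the assigned gene's own start was within 1 kb as well. A further 12 peaks lay within 1 kb of an edge of a gene whose strand is not known here. Another gene here means another symbol, and 357 of the 381 peaks matched a RefSeq symbol. A gene without a match may be counted beside its own locus under another name. Gm26660, without a match, had its assigned start 268 bp and the same-strand Zmiz1os1 start 145 bp from the summit. Whether these are 1 locus was not tested. The median fold of the 31 was 4.33 (range 2.85 to 8.17), against 4.58 for the other coding exon and gene end peaks.

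The deepest of all 381 peaks was among these 31. B430305J03Rik, at chromosome 3, 61363201 to 61364442, had 124 fragments over 5.19 (fold 5.82, q = 7.11e-14), with a summit 317 bp before the start of Rap2b, a Ras-family GTPase, and the lowest exact p at the site of the 381 (6.49e-09). Pawr, a pro-apoptotic regulator, had 39 over 0.472 in exon 2 at chromosome 10, 108332920 to 108333759 (fold 8.17), and the start of Gm40755 printed above lies inside that peak. Stk35, a nuclear kinase, had 28 over 0.472 (fold 6.06), with the start of its antisense partner Stk35os1 at 177 bp from the summit. Cuedc2 had 57 over 5.00 (fold 2.85, the lowest of the 31), and its summit was 315 bp into Fbxl15, an F-box protein gene. The gene end peak of Gm10322 lay 252 bp into Mcu, the mitochondrial calcium uniporter, with 25 fragments over 1.18 (fold 3.70). Counts at these sites cannot be told apart by gene, since ATAC-seq fragments carry no transcript strand.

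**Figure D4:**
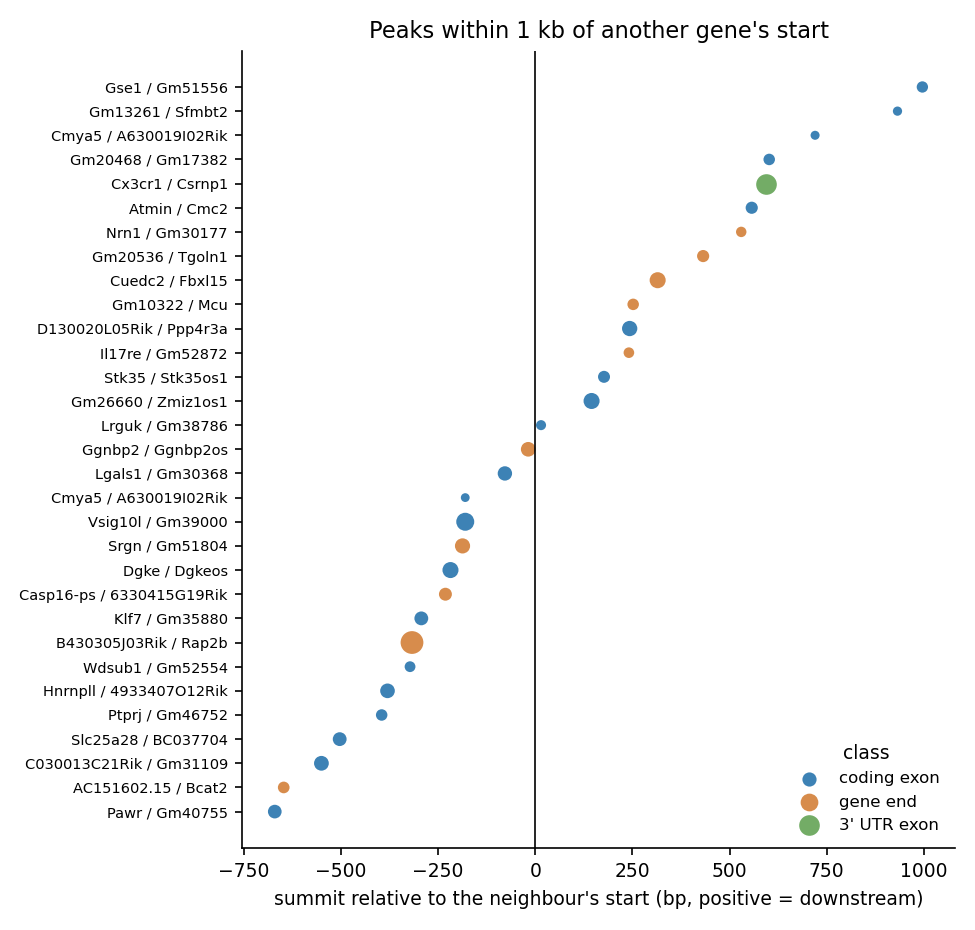
Position of each of the 31 summits relative to the RefSeq start of the neighbouring gene (bp, positive downstream in the neighbour), with each row named assigned gene / neighbour, colour for the class and point area growing with the anti-IFNAR1 fragments. B430305J03Rik, with 124 fragments, sits 317 bp before Rap2b, and Cx3cr1, with 100, sits 593 bp into Csrnp1.

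Of the 381 summits, 183 lay within 1 kb of the assigned gene's own start or another gene's RefSeq start. A further 112 did not, but lay within 10 kb of some counted start, and 86 (22.6%) had none within 10 kb. The 10 kb limit also counted transcript starts that the list names for other peaks, and neither limit counted genes without a known strand. The 86 had fewer fragments and a lower background than the 183, with medians of 27 over 0.519 against 35 over 1.42. Their median fold was 4.74 against 4.39. Of the 86, 3 passed the exact test at the site (3.49%), against 9.45% of the 381 and 20.9% of the list. Among the RefSeq starts used, another start of the same gene rarely lay beside peaks far from the assigned start. That set does not hold every transcript start: at Rora its nearest lay 636292 bp from a summit 396 bp from the assigned transcript start. Of 195 peaks over 1 kb from the assigned transcript start, 4 had a RefSeq start of the same gene within 1 kb of the summit, at Coq10a, Ppp1r10, Srgn and Hist1h2be. Srgn, which encodes the granule proteoglycan serglycin, was listed as 19774 bp away and lay 140 bp from a RefSeq start.

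**Figure D5:**
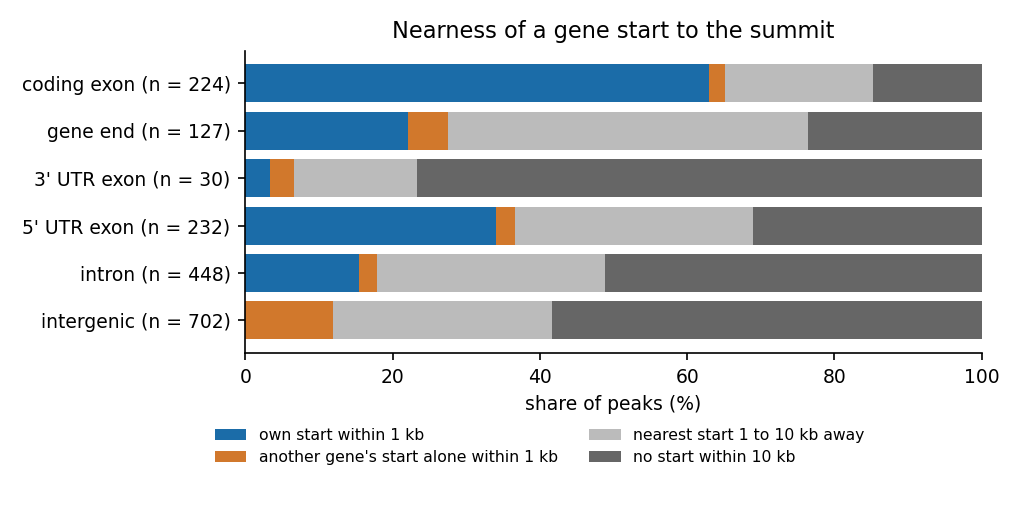
Share of peaks in each class (percent) by the nearness of a start to the summit. The 1 kb limit uses assigned and RefSeq starts, and the 10 kb limit adds transcript starts that the list names for other peaks. Coding exon peaks have the largest share near their own start, and 23 of the 30 3′ UTR exon peaks have no counted start within 10 kb.

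The 381 peaks were assigned to 369 genes, and at 266 of these genes no other kind of peak was listed. A gene start peak was also listed for 83 of the genes. The nearest other listed peak lay a median of 31284 bp away, against 46064 bp over the list. Within 2 kb of another listed peak lay 44 of the 381 (11.5%), against 7.91% of the list, and at 26 of the 44 that peak was the start of the same gene. At Fosb, an AP-1 subunit, the peak in exon 1 had 66 fragments over 2.36 (fold 5.85), and its listed start peak was 414 bp from the summit. Klf6, a zinc finger transcription factor, had 62 over 3.54 in exon 1 (fold 4.08), with its start peak 597 bp away.

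More than 1 such peak was assigned to each of 10 genes. Mcu had 3 in 3′ UTR exons of a nonsense-mediated decay transcript, with 26 fragments over 0.708, 49 over 3.07 and 15 over 0.142, at folds of 4.89, 3.65 and 4.59. Tns2, a focal adhesion protein gene, had 3, in exon 6, exon 9 and at its end, with 14, 15 and 14 fragments over the genome rate of 0.132. Sfi1, a centrosomal protein gene, had a pair of gene end peaks with 63 over 5.00 and 58 over 3.00 (folds 3.13 and 4.35). Cmya5 had 11 and 12 fragments at sites 900 bp apart in exon 2, the weakest pair. The Tns2 and Cmya5 peaks had no control fragment at the site, so their folds rest on these few anti-IFNAR1 fragments.

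The gene lists are given as counts beside the list as a whole, in which 369 of 5130 genes with any listed peak (7.19%) held a coding exon, gene end or 3′ UTR exon peak. Of 35 Tfh genes, 26 had some listed peak and 4 held such a peak: Cd200 at an end (26 over 0.566, fold 5.33), Btla at its end (38 over 2.00, fold 3.91), Nfatc1, and the interleukin 6 receptor Il6ra in exon 10 (27 over 0.614, fold 5.35). Of 27 activation and inhibitory receptor genes, 16 had some listed peak and 3 such a peak. Tigit, an inhibitory receptor, had 30 over 1.00 in exon 2 (fold 4.74). Cd28, the costimulatory receptor, had 26 over 0.708 in exon 1 (fold 4.89). Dusp4, a MAP kinase phosphatase, had 47 over 2.00 in exon 1 (fold 4.76). Of these 7 genes, Nfatc1 was the only one whose peak passed the exact test at the site.

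Of 20 naive and memory T cell genes, 15 had some listed peak and 5 held such a peak. S1pr1, the receptor for exit from lymphoid organs, had 37 over 1.00 in exon 2 (fold 5.73). Ccr7, the homing receptor of naive T cells, had 19 over 0.519 at its end (fold 4.19). Bcl2, the survival factor, had 46 over 1.89 in exon 1 (fold 4.85). Btg1, an antiproliferative gene, had 29 over 1.01 in its 3′ UTR exon (fold 4.57), and Klf6 is given above. A gene start peak was listed as well for Bcl2, Btg1, Ccr7 and Klf6.

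Of 26 T cell receptor signalling genes, 19 had some listed peak and 2 held such a peak, Cd3d and Cd247, the latter with 14 fragments over 0.189 at the end of a nonsense-mediated decay transcript (fold 4.17). Of 21 Th1 and cytotoxic genes, 6 had some listed peak and 2 such a peak, Cx3cr1 and Zeb2 (exon 2, 30 over 1.00, fold 4.74), of which the Cx3cr1 peak covers the Csrnp1 start. The orphan nuclear receptor Rora, in the Th2 and Th17 list of 15, had 76 over 3.07 in exon 1 (fold 5.53). Of 51 interferon-stimulated genes, 17 had some listed peak and 0 had one in a coding exon, gene end or 3′ UTR exon; at 7.19% of genes, a count of 0 among 17 is near the share over the list. The same count was 0 of 12 regulatory T cell genes, of which 3 had a listed peak, and 0 of 101 ribosomal protein genes, of which 40 had a listed peak. Of 72 chromatin regulators, 44 had some listed peak and 4 held such a peak: Setd1b, Ezh2, Dnmt3a (exon 2, 30 over 0.944, fold 4.88) and Bcor (exon 3, 34 over 0.708, fold 6.21). Among the myeloid markers, Cd14 had 13 fragments over 0.132 at its end (fold 4.13).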

How the data were processed

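Chromatin accessibility (ATAC-seq) was measured in sorted Tfh cells, 4 anti-IFNAR1 and 3 IgG samples. Per the submitters' processing notes, which give no role or order, the tools were MACS2 2.1.0.20150420, bedtools, BWA 0.7.9a, DESeq2 and DiffBind 2.0.7, with mm10. The deposited file is 1 peak list with 0 sample columns, so no test over samples was possible. Per the file headers, the deposited values were the pileup signal (scaled coverage), the fold ratio over background, and the −log10 of the p-value and q-value. The deposited end coordinate is 1 past the last base and is printed as given.

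Fragments were recovered by dividing the deposited pileup by 0.283, to within 0.005, and the background was recovered from the fold with its pseudocount of 1 (fragment length 236 bp). Peaks were tested with Python 3.11.15 and scipy 1.17.1. The scripts were tested on simulated data. RefSeq starts (GRCm38.p6) numbered 40924 from 27900 genes; strand was known for 18327 of 21900 protein-coding and 9573 of 12731 long noncoding genes, and 357 of the 381 peaks matched a RefSeq symbol. Promoter windows were searched for 11 motifs on both strands (AP-1, CRE, E-box, ETS, GC box, NRF1, YY1, STAT, RUNX, ISRE and CTCF).

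The members and the 20 gene lists were chosen with earlier results of these data known. The genes considered for naming were, in each class, the 6 smallest q, the 3 largest folds, the 3 farthest from and 3 nearest to a start, members in the lists, genes with several peaks, and the 8 smallest q among peaks with another start within 1 kb and among those with none within 10 kb; the text names part of them, and a few others (Hif1a, Bard1, Stk35, Cuedc2, Gm10322, Lgals1, Casp16-ps, Clk3, Coq10a, Ppp1r10 and Srgn) after their values or positions were seen. Lists with a result not given in the text follow with their size, then the genes with a coding exon, gene end or 3′ UTR exon peak of those with any listed peak. These were AP-1 and NF-kB (24 genes, 1 of 18), cytokine receptor (33, 1 of 18) and histone (67, 3 of 19) genes. The others were zinc finger (400, 1 of 96), protocadherin (69, 1 of 3) and olfactory or vomeronasal (1465, 0 of 1) genes.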

Additional observations from a re-analysis of the deposited data

How the results depend on the processing

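No paired analysis was possible because the deposited list has no sample columns; leaving out each replicate could not be run for the same reason. Of 37 alternatives, 19 stayed within the limits set for a small change and 18 moved. A pileup of at least 20 left 19 peaks (11 coding exon, 6 gene end, 2 3′ UTR exon), and a fold of at least 5 left 125 (70, 47 and 8). Peaks passing the exact test rose from 36 to 278 with the caller's window, a setting that gave the 51 peaks at the genome-wide rate no control noise. The median fold of 4.57 moved to 4.88 at q of 0.01, 4.41 at the higher pileup, and 4.73 among peaks passing with the caller's window, an alternative chosen after seeing the data. The 8.14% of peaks with another gene's start within 1 kb became 5.25% within 500 bp, 13.4% within 2 kb and 3.15% for protein-coding neighbours alone. The 48.8% within 1 kb of the assigned start became 38.6% within 500 bp, 55.1% within 2 kb and 37.5% from the RefSeq gene start. Other limits change these counts and shares by construction; the cause of the shift with the RefSeq start was not tested. Depth limits the site test, since 39 fragments are needed where the control has none.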
